A study of Oryza sativa with 35 samples.

Results

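The flag leaf is the last leaf of the rice shoot, and its blade is a main source of the sugars that fill the grain. A grass leaf has a blade, which is mostly photosynthetic mesophyll with silica-rich epidermis, and a sheath, which wraps the stem below it. The genes described here are those whose array signal was highest in the flag leaf blade, at every position along it, among the organs of the upper shoot at heading. They were chosen by the measured values themselves. On log2 of the deposited signal, with signals under 1 set to 1, the means of the blade tip, the blade middle and the blade base had all to be at least 9. Each also had to be at least 1 above the mean of each of the 8 other organ parts. Of 57258 rice probe sets on the array, 12601 had all 3 blade means at or above 9, and 148 met both conditions, which is 1.17% of those bright in the blade. A probe set is the group of short probes on the array that reads 1 transcript.

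Rice plants of cultivar Nipponbare (Oryza sativa) were raised on soil in an irrigated greenhouse under added artificial light and sampled at heading, and total RNA of each sample was hybridised to 1 Affymetrix Rice Genome Array. The blade groups were the tip, the middle and the base of the flag blade, with 3 arrays each. The groups outside it were the top of the flag leaf sheath (3 arrays) and its base (2 arrays), the top and base of internode I, nodes I and II, panicle branches, and flowers before anthesis, with 3 arrays each. The rule used these 32 arrays. Whole blades of the flag leaf, of leaf 2 and of leaf 4, counted down from the flag leaf, had 1 array each, were not used by the rule and allow no test. The repeats are labelled biological replicates, without saying whether separate plants were taken, so the p-values reflect only the spread among these samples.

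Levels below are log2 of signal after quantile normalization over all 35 arrays, and tests are limma's moderated tests on the 38673 probe sets bright enough to test, with all groups sharing 1 estimate of spread and Benjamini-Hochberg adjustment over all of them. A call needed both an adjusted p under 0.05 and a difference of 2-fold or more. All 148 passed the brightness filter, as the choice by blade level requires. Replicate arrays correlated at 0.888 to 0.934 on log2 of the deposited signal. The blade carried the markers of leaf mesophyll, but these do not set it apart: RBCS, the small subunit of Rubisco, averaged 14.85 at the tip, and 14.94 in the internode top and 15.02 in panicle branches. Of the 4 mesophyll markers measured, the log2 of the summed signal was 16.99 to 17.13 over the blade arrays and 17.03 to 17.11 in panicle branches. The summed signal of the 3 secondary wall genes CESA4, CESA7 and CESA9 was 5.94 to 7.23 over the blade arrays and 15.65 to 15.9 in the internode base, and that of the 8 flower genes was 9.3 to 9.94 in the blade and 15.67 to 15.96 in flowers.

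The array's annotation gives 1 gene for 108 of the 148 probe sets and does not list the other 40. These 108 read 102 distinct genes. Only 12 genes had a name other than a locus number, so most of the set can be given by locus alone. The genes lay on all 12 nuclear chromosomes, from 2 on chromosome 9 to 22 on chromosome 1. In the ASM3414082v1 assembly, LOC4342381 and LOC4342382 stood next to each other on chromosome 7. Another 2 pairs on chromosome 1, LOC4326838 with LOC4326840 and LOC4324568 with LOC4324570, had 2 genes between them. Some loci were read by several probe sets of the set, LOC4323896 and LOC4352131 by 3 each and LOC4326959 and LOC4342731 by 2 each, so these are not independent. Probe sets of member genes that were not chosen also exist: of 17 such probe sets over 13 genes, 9 were highest in the blade by a margin under 1 and 8 were not. Highest in the blade means here that all 3 blade means were above all 8 others. The comparisons of named genes below are those of their member probe sets alone. Those of other probe sets of the same genes are not given. The IDs of 18 members end in _s_at or _x_at, the array's marks for probes that may also match other transcripts. In bulk tissue, fewer cells of a type and less RNA per cell cannot be told apart.

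The margin is the lowest blade mean minus the highest mean of another organ, on the deposited log2 scale. It is what the rule selected on, so it is given as a description. Its median was 1.338, 101 probe sets had a margin between 1 and 1.5, 16 reached 2 and 6 reached 3. The organ with the next highest mean was the sheath top for 99, panicle branches for 30, flowers for 10, node II for 4, the internode top for 4 and node I for 1. Just inside the margin were LOC4337775 at 1.0034, LOC4333209 at 1.0038 and Roc2 at 1.0061. Just outside were LOC4339786 at 0.9969, an unlisted probe set at 0.9965 and LOC4323840 at 0.995. At the level limit, LOC4323896 was inside with a lowest blade mean of 9.0381, and LOC4335140 with 8.9777 and WRKY24 with 8.9159 were outside.

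**Figure D1:**
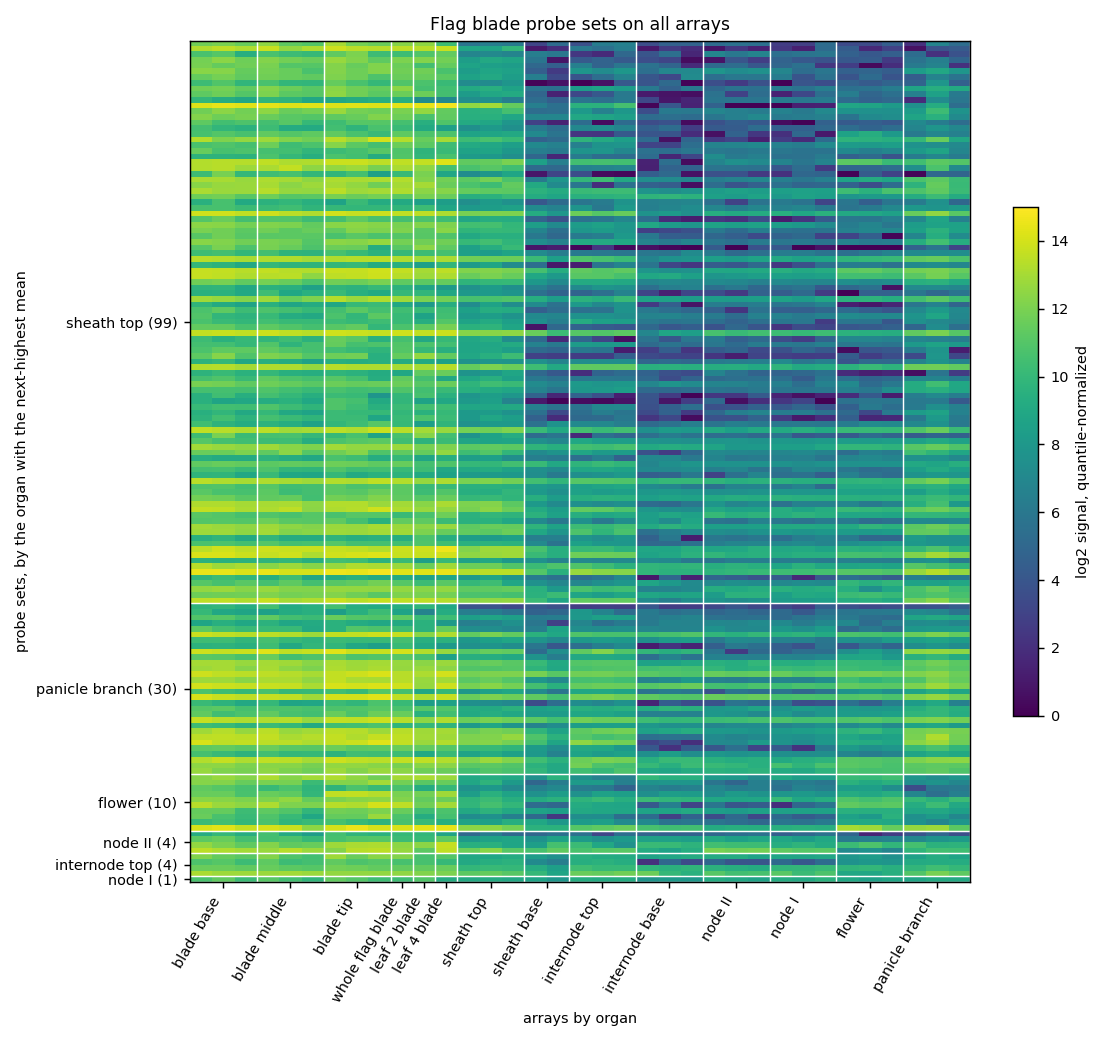
Log2 signal after quantile normalization of the 148 probe sets (rows, grouped by the organ with the next highest mean) on all 35 arrays (columns, grouped by organ part); white lines part the groups. The rows are brightest over the blade arrays by construction, and the 99 rows whose next organ was the sheath top are mostly dark over the sheath base, internode base and nodes.

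Only 5 of the 148 had all other organ means under 7. An unlisted probe set had the largest margin, 5.646, with 10.98 to 12.95 over the 9 blade arrays and at most 6.77 over the 23 other arrays. LOC4328603, chosen here after its values were seen, had a margin of 4.0. It read 13.83, 13.47 and 13.31 at the tip, against 8.84, 8.69 and 9.9 in the sheath top and 1.01 and 1.97 in the sheath base. LOC4342844, also chosen after its values were seen, lay between 9.42 and 12.05 in the blade and at or under 7.04 elsewhere. For 134 of the 148, each of the 9 blade arrays was above each of the 23 others, and for 14 at least 1 array overlapped. The rule chose on the means of these same arrays, so this separation follows largely from it, as it does for the named genes below. The share over all probe sets was not counted.

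**Figure D2:**
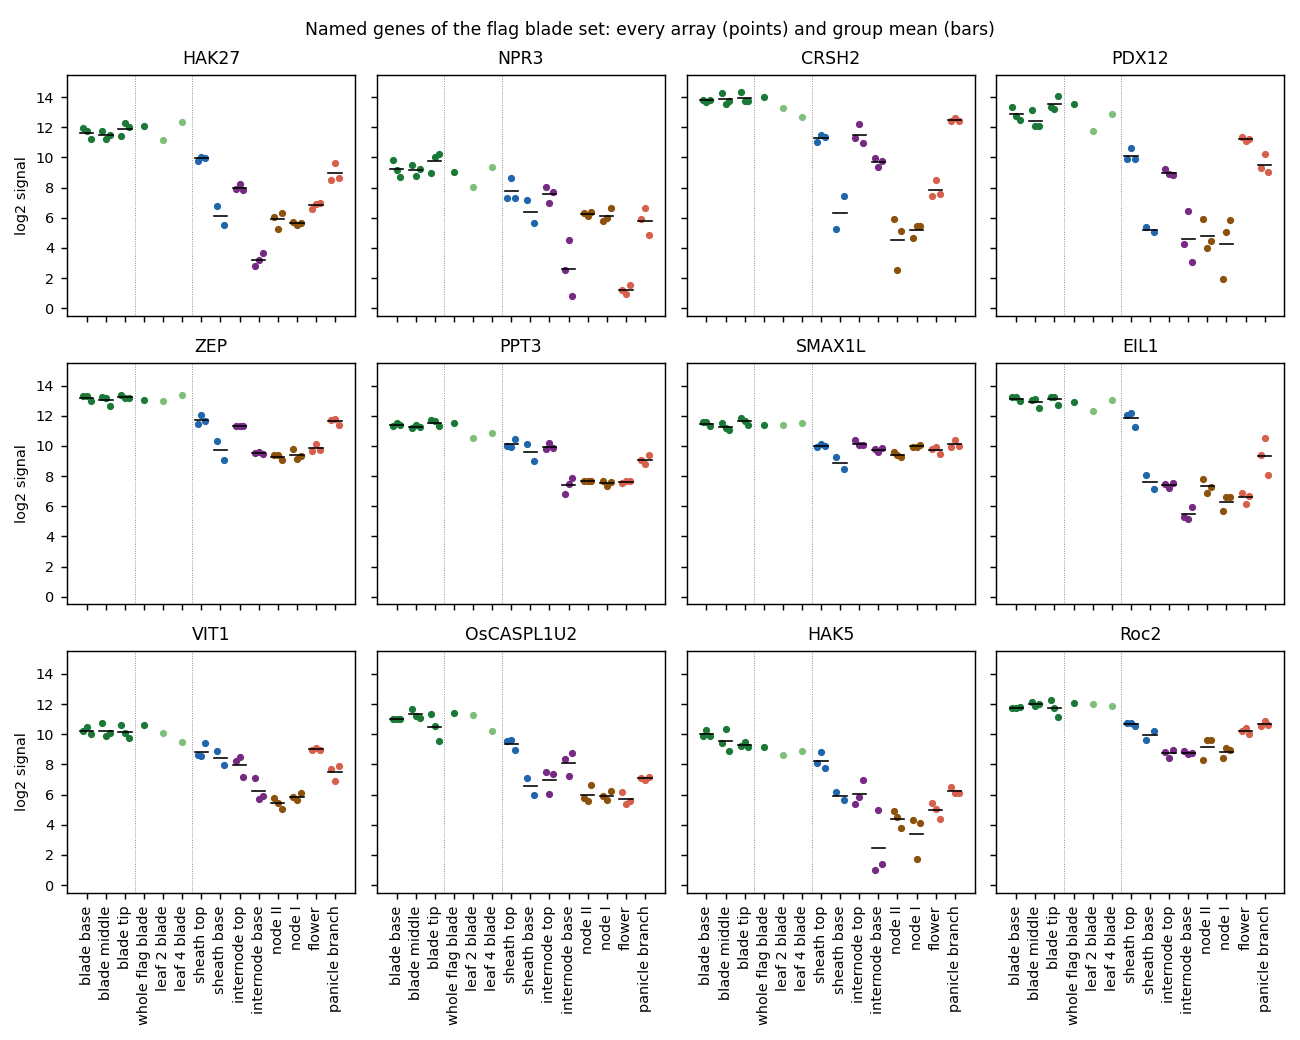
Log2 signal of the 12 named genes on every array (points) with group means (bars), blade parts at the left, then whole blades, then the other organs. In 11 panels all points of the 3 blade parts lie above all points of the organs outside the blade; in that of OsCASPL1U2 the tip replicate at 9.56 lies below a sheath-top replicate at 9.59.

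The named genes fall into transport, plastid metabolism, vitamin and hormone-related functions, and regulators. Among the transporters, HAK27, a member of the HAK family of potassium transporters, read 11.4, 12.27 and 12.02 at the blade tip, 11.74, 11.22 and 11.49 in the middle, and 11.96, 11.73 and 11.2 at the base. Outside the blade it was highest in the sheath top, at 9.8, 10.05 and 9.99, and lowest in the internode base, at 2.81, 3.19 and 3.65. Its blade arrays did not overlap those of any other organ. HAK5, known as a high-affinity potassium transporter, read 9.25, 9.51 and 9.18 at the tip and 9.9, 10.27 and 9.9 at the base, against 8.09, 8.81 and 7.77 in the sheath top. A second probe set of HAK5 did not share this pattern: on the deposited log2 scale its lowest blade mean was 14.349 and its highest mean elsewhere 14.335. VIT1, a vacuolar membrane transporter of iron and zinc, read 10.64, 10.1 and 9.72 at the tip and 8.97, 9.12 and 8.95 in flowers, its next organ. OsCASPL1U2 belongs to the CASP-like membrane proteins, relatives of the proteins that build the Casparian strip. It read 11.69, 11.18 and 11.09 in the blade middle and 11.32, 10.57 and 9.56 at the tip, against 9.54, 9.59 and 8.98 in the sheath top.

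The next named genes act in the plastid or in pigment and vitamin metabolism. CRSH2, a calcium-activated plastid enzyme that makes the alarmone ppGpp, read 14.33, 13.76 and 13.72 at the tip, against 12.43, 12.62 and 12.43 in panicle branches, its next organ. It was low in the nodes, at 4.65, 5.46 and 5.43 in node I. ZEP, zeaxanthin epoxidase of the xanthophyll cycle and of abscisic acid synthesis, read 13.36, 13.2 and 13.16 at the tip, against 11.47, 12.04 and 11.65 in the sheath top. PPT3, a plastid phosphoenolpyruvate translocator, read 11.69, 11.62 and 11.29 at the tip, against 9.98, 9.95 and 10.44 in the sheath top. PDX12 belongs to the synthases of pyridoxal phosphate, the active form of vitamin B6. It read 13.36, 13.19 and 14.06 at the tip, against 11.34, 11.12 and 11.2 in flowers. In these genes the blade arrays were separate from all others.

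The remaining named genes are regulators. EIL1, an EIN3-like factor of the ethylene pathway, read 13.21, 13.23 and 12.98 at the blade base, against 12.06, 12.19 and 11.24 in the sheath top. A second gene that carries the name EIL1 in the annotation was not in the set, with a margin of -0.29. Roc2, a homeodomain factor of the class active in the shoot epidermis, read 12.14, 11.85 and 12.01 in the blade middle, against 10.75, 10.74 and 10.56 in the sheath top. SMAX1L, related to the repressors of karrikin and strigolactone signalling, read 11.83, 11.68 and 11.41 at the tip, against 10.39, 10.05 and 10.03 in the internode top. Its levels elsewhere spanned a narrow range, from 8.49 to 10.41. NPR3 belongs to the family of the salicylic acid coregulator NPR1 of Arabidopsis. Its member probe set, whose ID ends in _x_at, read 8.96, 10.03 and 10.22 at the tip, against 7.3, 8.64 and 7.33 in the sheath top and 1.24, 0.93 and 1.54 in flowers. The other 3 probe sets of NPR3 had margins of -0.425, 0.084 and 0.359, so all fell short of 1 and the first was not highest in the blade.

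Relatives by name were looked up after the 12 genes were known, so the counts describe and do not test. Of 22 HAK genes measured, 14 had all blade means at or above 9, and 3 of these were highest in the blade: HAK27, HAK5 and HAK16, the last with a margin of 0.90. HAK4 was at the other end, with a margin of -10.94 and its highest mean in the internode top. Of 3 PPT genes only PPT3 was highest in the blade, while PPT2 had a margin of -1.13 and PPT1 of -2.11. VIT1.2 was highest in node I, with a margin of -3.29. Of 8 Roc genes, Roc1 and Roc6 were also highest in the blade, by 0.09 and 0.05. Of 22 CASP-like genes only OsCASPL1U2 was. PDX11 had a margin of -0.18 and CRSH1 of 0.02.

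Genes of photosynthesis itself on the lists used here were absent from the set. Lists were matched by gene name, and only 12 of the 102 distinct genes of the set had one. Members without a gene name could not be matched to a list, so their functions are not covered here. None of the 2 light-harvesting, 10 photosystem and electron transport, 7 carbon fixation, 8 photorespiration or 16 chlorophyll genes measured was a member. Their median margins were -0.43, -0.24, -0.37, -0.79 and -0.50, so the middle gene of each list had a higher mean in another organ than in at least 1 blade part. Of 9 carotenoid and isoprenoid genes, 6 were highest in the blade with a median margin of 0.18, and only ZEP reached 1. DXR, of the plastid isoprenoid pathway, had a margin of 0.57, and PSY1, phytoene synthase, had 0.18. Of 26 genes of plastid biogenesis and proteolysis, 17 were highest in the blade with a median margin of 0.19, and CRSH2 was the only member. FTSH6, a thylakoid protease, had a margin of 1.33 but was too dim, with a lowest blade mean of 8.605 on the deposited log2 scale.

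Along the blade few probe sets of the set were called. The tip had the highest mean for 90 of the 148. Neither this count nor the counts below by sign of the difference were made over all probe sets. The rule asks that all 3 parts be high and does not use which is highest. Comparing middle with tip, 0 probe sets of the set were called higher and 3 lower, beside 1.09% and 0.758% of all probe sets tested. The set's median difference was -0.31, with 117 of 148 below 0, and the median over all tested was -0.01. In the limma fit 23 of the 148 had an unadjusted p under 0.05 there, beside 15.1% of all tested. That number is close to the share over all tested. All 23 were lower in the middle. The split by direction at this unadjusted limit was not counted over all tested, for this or the other comparisons. Comparing base with tip, 0 were higher and 1 lower, beside 0.186% and 0.282% of all tested. The median was -0.13, beside 0.003 over all tested, with 99 of 148 below 0. In the limma fit 4 had an unadjusted p under 0.05, all lower at the base, beside 9.43% of all tested. Comparing base with middle, 0 were higher and 0 lower, beside 0.00259% and 0.0233% of all tested. The median was 0.17, beside 0.004 over all tested, with 116 of 148 above 0. In the limma fit 1 member had an unadjusted p under 0.05, higher at the base, beside 6.98% of all tested. The middle-to-tip median rests partly on 1 array: it was -0.15 without middle replicate 3, on which the set's median level was lowest of the blade, at 10.80 against 11.09 to 11.64 on the other 8. It was -0.47 without middle replicate 1, and the number of lower calls was 1 and 5 in these fits, and 1 without tip replicate 3.

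The probe sets that changed along the blade, named after their values were seen, were highest at the tip. LOC4334183 read 11.5, 11.26 and 9.95 in the middle and 11.49, 11.5 and 10.71 at the base, against 13.57, 13.61 and 13.34 at the tip. No array of the middle or base reached the tip. The difference was -2.60 ± 0.41 (SE) for the middle minus the tip, with a limma adjusted p of 0.00106. It was -2.28 ± 0.41 for the base minus the tip, with an adjusted p of 0.00739, and the adjusted p was 0.0548 without base replicate 3. LOC4330452 read 11.25, 10.91 and 9.88 in the middle, against 11.8, 11.68 and 12.06 at the tip, a difference of -1.17 ± 0.28 with a limma adjusted p of 0.0274. An unlisted probe set read 10.27, 10.34 and 9.34 in the middle, against 10.76, 11.04 and 11.23 at the tip, a difference of -1.02 ± 0.23 with a limma adjusted p of 0.0145. The calls of LOC4330452 and of this unlisted probe set were lost without tip replicate 3 (adjusted p of 0.143 and 0.0932) and without middle replicate 3 (0.235 and 0.144), and that of LOC4330452 also with no filter on dim probe sets (0.0512). In limma fits of only the 2 groups' arrays none of these calls held. For LOC4334183 the adjusted p was then 0.19 for the middle minus the tip and 0.167 for the base minus the tip. For the middle minus the tip it was 0.396 for LOC4330452 and 0.384 for the unlisted probe set. No named gene was called in a comparison along the blade.

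**Figure D3:**
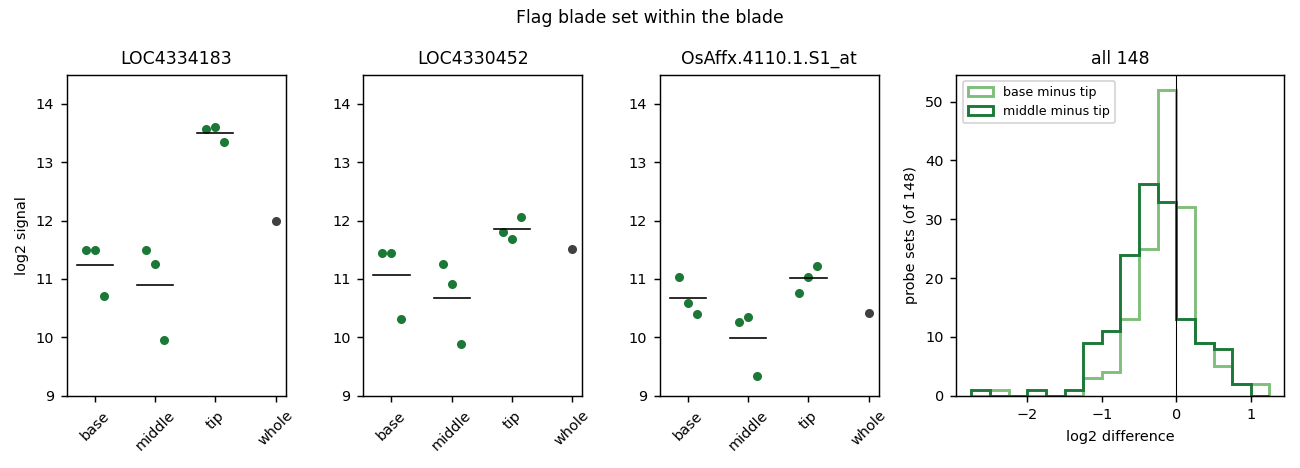
Log2 signal of the 3 probe sets called along the flag leaf blade on every array (points; bars are group means of the replicated parts, and the whole blade is 1 array), and, at the right, the number of the 148 probe sets by log2 difference of middle minus tip and base minus tip. The tip values of LOC4334183 lie between 13.34 and 13.61, all above its middle and base values, and most of the set's differences lie between -1 and 1.

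In the flag leaf sheath, most of the set was brighter at the top, next to the blade, than at the base. The rule bounds these organs only from above and does not use the difference between them. There, 111 of the 148 were called higher in the top than in the base and 0 lower, beside 9.02% and 8.53% of all probe sets tested. The members called higher make 75.0% of the set, against 16.3% of the 12453 other probe sets with all blade means at or above 9. The set's median difference was 2.32, beside 0.05 over all tested, and 145 of 148 differences were above 0. The count was 81 without sheath base replicate 2 and 50 in a fit of these 5 arrays alone. The set's median level was 9.16, 9.46 and 9.22 in the sheath top, against 7.23 and 6.79 in the base.

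Some markers of cell types moved with this comparison. The log2 summed signal of the 4 mesophyll markers was 16.79 to 16.93 in the sheath top, against 15.81 to 16.29 in the base. That sum is carried by CAB2R, which averaged 15.18 in the top and 15.29 in the base, while RBCS averaged 14.69 in the top and 12.4 in the base, GLN2 14.07 and 11.72, and RCA 15.24 and 14.11. The log2 summed signal of the 3 secondary wall genes CESA4, CESA7 and CESA9 was 6.78 to 7.39 in the top, against 10.94 to 13.01 in the base. That of the 3 meristem and cell division genes was 9.9 to 9.96, against 10.36 to 13.16. Of the last 3, PCNA, the cell division gene, was nearly level, at 9.86 in the top and 9.96 in the base. OSH1 averaged 2.83 in the top and 8.45 in the base, and OSH71 4.33 and 9.05. The part of these markers in the result was not tested.

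Of the 12 named genes, 8 rose in the sheath top relative to its base, 0 fell and 4 were not called. EIL1 read 12.06, 12.19 and 11.24 in the top, against 8.09 and 7.15 in the base, a difference of 4.21 ± 0.49 with a limma adjusted p of 1.73e-06. CRSH2 read 11.05, 11.5 and 11.39, against 5.25 and 7.44, a difference of 4.97 ± 0.65. In both genes the 2 ends of the sheath were far apart on every array. PDX12 differed by 4.93 ± 0.84, HAK27 by 3.81 ± 0.37, OsCASPL1U2 by 2.82 ± 0.49, ZEP by 2.01 ± 0.27 and SMAX1L by 1.13 ± 0.21. HAK5 differed by 2.33 ± 0.83 with an adjusted p of 0.0383, a call that was lost without any 1 of sheath top replicates 1 and 2 and sheath base replicates 1 and 2 (adjusted p of 0.0649 to 0.256). SMAX1L was at 0.75, under 2-fold, without sheath base replicate 2. In a fit of the 5 sheath arrays alone ZEP, SMAX1L, OsCASPL1U2 and HAK5 were not called, with adjusted p of 0.0908, 0.117, 0.0528 and 0.0633. NPR3 at 1.35 ± 0.72, Roc2 at 0.74, PPT3 at 0.55 and VIT1 at 0.40 were not called.

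The largest sheath difference, named after it was seen, was that of LOC4326099, which read 8.5, 9.37 and 10.08 in the top, against 0.88 and 1.23 in the base. That is 8.26 ± 1.11 with a limma adjusted p of 9.83e-06, and the size depends on how low signals are treated: on log2(signal + 16) it was 5.18. Lists of plastid genes, among them ZEP and CRSH2 of the set, were called mostly in this direction. Of 25 plastid biogenesis and proteolysis genes 12 were higher in the sheath top and 0 lower, of 10 photosystem genes 6 and 0, and of 9 carotenoid genes 5 and 0. Of 6 carbon fixation genes 4 were higher and 0 lower, of 16 chlorophyll genes 5 and 1, and of 8 photorespiration genes 3 and 1, with a median difference of 0.01 for the last list.

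Within internode I, a segment of the stem, 80 of the 148 were called higher in the top than in the base and 5 lower, beside 18.7% and 13.8% of all tested. The share higher was 54.1% of the set, against 27.6% of the other probe sets bright in the blade, and the median difference was 1.5, beside 0.12 over all tested. Of the named genes 9 rose in the internode top relative to its base. HAK27 read 7.91, 8.21 and 7.83, against 2.81, 3.19 and 3.65, a difference of 4.77 ± 0.34 with a limma adjusted p of 1.18e-10. NPR3 differed by 4.97 ± 0.64, PDX12 by 4.38 ± 0.75, HAK5 by 3.59 ± 0.74 and PPT3 by 2.55 ± 0.24. For NPR3 and HAK5 the base was close to the floor, and on log2(signal + 16) the differences were 3.08 and 1.74. Both genes have other probe sets outside the set, whose differences are not given here. EIL1, ZEP and VIT1 differed by 1.96 ± 0.44, 1.79 ± 0.24 and 1.72 ± 0.38. CRSH2 differed by 1.78 ± 0.58 with an adjusted p of 0.0147, and its call was lost without top replicate 2 (0.0828) or base replicate 2 (0.0532). SMAX1L, at 0.42, and Roc2, at -0.06, were not called.

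A few members went the other way in the internode. OsCASPL1U2 read 7.53, 6.04 and 7.37 in the top, against 8.34, 7.22 and 8.79 in the base, a difference of -1.14 ± 0.44 with a limma adjusted p of 0.0379, and the arrays overlapped. That call was lost on the deposited scale (adjusted p of 0.104), with equal array medians (0.0782), without filter (0.0576), without top replicate 2 (0.253) and without base replicate 1 (0.108) or 3 (0.19). LOC4324568, named after its values were seen, read 7.49, 6.58 and 6.56 in the top, against 9.96, 9.46 and 9.47 in the base, with no overlap, a difference of -2.75 ± 0.41. The others called lower were 2 probe sets of LOC4323896 and 1 unlisted probe set. The count of 5 fell to 3 without internode top replicate 3 and to 1 without internode base replicate 1. At the other end LOC4337261, also named after its values were seen, read 12.43, 11.96 and 11.8 in the top, against 3.0, 3.68 and 2.04 in the base, a difference of 9.15 ± 0.41, or 7.48 on log2(signal + 16). The neighbours LOC4342381 and LOC4342382 both rose, by 8.04 ± 0.74 and by 2.04. The secondary wall markers had a log2 summed signal of 9.46 to 10.4 in the internode top, against 15.65 to 15.9 in its base, and the mesophyll markers 16.98 to 17.01, against 15.55 to 15.74. RBCS averaged 14.94 in the top and 8.58 in the base, GLN2 14.33 and 11.82, and RCA 15.15 and 12.58. CAB2R was nearly level, at 15.37 in the top and 15.36 in the base. Unlike in the sheath, the meristem and cell division genes had a higher log2 summed signal in the top, 13.97 to 14.05, against 13.55 to 13.74. OSH1 averaged 13.89 in the top and 13.01 in the base, and PCNA 9.6 and 6.42, while OSH71 averaged 8.68 and 12.17. The part of these markers in the result was not tested.

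**Figure D4:**
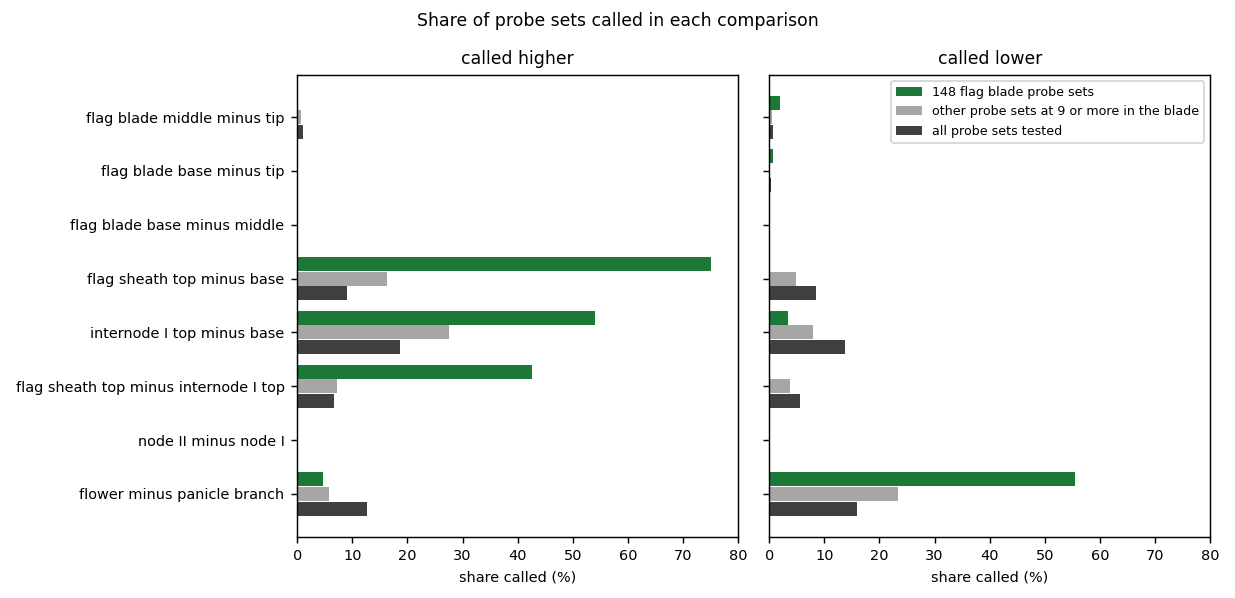
Share (%) of the 148 flag blade probe sets (green), of the 12453 other probe sets with all blade means at or above 9 (grey) and of all 38673 probe sets tested (dark) that were called higher (left) and lower (right) in each comparison. The set stands at 75.0% higher in the sheath top over its base and at 55.4% lower in flowers than in panicle branches.

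Between the tops of sheath and internode, 63 of the 148 were higher in the sheath top and 0 lower, beside 6.75% and 5.54% of all tested, with a median difference of 1.02 beside -0.02. Members whose next organ was the sheath top made 60 of the 63, which follows partly from sorting them on the same values. With array medians set equal in place of quantile normalization, 84 members were higher and 0 lower, and the calls over all probe sets shifted to 3942 higher and 1524 lower, beside 2609 and 2144. EIL1 read 12.06, 12.19 and 11.24 in the sheath top, against 7.5, 7.22 and 7.53 in the internode top, a difference of 4.42 ± 0.44 with a limma adjusted p of 2.08e-07. OsCASPL1U2 differed by 2.39 ± 0.44, HAK5 by 2.16 ± 0.74, HAK27 by 1.96 ± 0.34 and Roc2 by 1.95 ± 0.29, and the other 7 named genes were not called. The adjusted p of HAK5 was 0.04, and it was 0.0557 to 0.148 without any 1 of the 3 sheath top arrays or of internode top replicates 1 and 2.

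Nodes are the sites where vascular bundles are redistributed between leaf and stem. Comparing node II with node I, 0 of the 148 were higher and 0 lower, beside 0.0724% and 0.124% of all tested. In the limma fit 14 of the 148 had an unadjusted p under 0.05, beside 8.74% of all tested. Of these 14, 8 were higher in node II. Over all probe sets 28 were higher and 48 lower, and on the deposited scale 49 and 34.

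In the panicle, most of the set was dimmer in flowers than in the branches that carry them. Of the 148, 7 were higher in flowers and 82 lower, beside 12.7% and 15.9% of all tested. The share lower was 55.4% of the set, against 23.4% of the other probe sets bright in the blade, and the median difference was -1.30, beside -0.18 over all tested. The set's median level was 7.46, 7.5 and 7.36 in flowers, against 8.54, 9.17 and 8.47 in panicle branches. CRSH2 read 7.44, 8.5 and 7.58 in flowers, against 12.43, 12.62 and 12.43 in branches, a difference of -4.65 ± 0.58 with a limma adjusted p of 9.56e-07. NPR3 read 1.24, 0.93 and 1.54 in flowers, against 5.89, 6.63 and 4.89 in branches, a difference of -4.56 ± 0.64, or -2.00 on log2(signal + 16). In both genes the groups were far apart. The NPR3 values are those of its _x_at member probe set alone, and those of its other probe sets are not given here. EIL1 at -2.73 ± 0.44, HAK27 at -2.11 ± 0.34, ZEP at -1.78 ± 0.24, PPT3 at -1.47 ± 0.24 and OsCASPL1U2 at -1.39 ± 0.44 were also called lower. The call of OsCASPL1U2 was lost without flower replicate 2 (adjusted p of 0.0543) and on the deposited scale (0.0624).

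VIT1 was the only named gene called higher in flowers, at 8.97, 9.12 and 8.95, against 7.67, 6.87 and 7.89 in branches, a difference of 1.53 ± 0.38 with a limma adjusted p of 2.38e-03. PDX12 stood at 1.69 ± 0.75 with an adjusted p of 0.076 and was not called. Neither were HAK5 at -1.26, SMAX1L at -0.37 and Roc2 at -0.45. Among loci named after their values were seen, LOC4334183 rose by 2.95 ± 0.41 and LOC4324568 by 2.63 ± 0.41, while LOC4350979 fell by 5.92 on the log2 scale. Of 16 chlorophyll genes 12 were also lower in flowers and 0 higher, and of 10 photosystem genes 7 were lower and 1 higher. The log2 summed signal of the mesophyll markers was 16.15 to 16.29 in flowers, against 17.03 to 17.11 in branches, and that of the 8 flower markers 15.67 to 15.96, against 10.88 to 12.01. RBCS averaged 13.26 in flowers and 15.02 in branches, GLN2 12.12 and 14.51, and RCA 14.52 and 15.21. CAB2R was nearly level, at 15.25 in flowers and 15.38 in branches. The log2 summed signal of the secondary wall genes was 12.21 to 12.79 in flowers, against 8.39 to 10.03 in branches. That of the meristem and cell division genes was 12.46 to 12.58, against 13.31 to 13.96. The part of these markers in the result was not tested.

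The whole-blade arrays were not used by the rule, though the other organ means they are set against were. On the whole flag blade, 137 of the 148 were at or above 9 and at least 1 above all 8 other organ means, beside 3.56% of the probe sets at or above 9 on it. All 148 were within 2-fold of the mean of the 3 blade parts. On leaf 2 the count was 93, beside 2.63%, and on leaf 4 it was 102, beside 4.13%. On both lower leaves 144 of the 148 were above the highest other organ mean. These are 1 array each, with no replicate check.

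Against the whole flag blade, the lower leaves were mostly a little dimmer for this set. The set was chosen for high flag blade means, with nothing asked of the lower leaves. Part of this lean can follow from that choice. On leaf 2, 6 probe sets were at least 2-fold higher and 35 lower, beside 10.4% and 11.5% of all tested, and the median difference was -0.41, beside 0.03. On leaf 4, 8 were higher and 30 lower, beside 11.7% and 11.1%, and the median was -0.27, beside 0.02. Both differences share the flag blade array. With array medians set equal, 21 probe sets were at least 2-fold lower on leaf 2. Among the named genes, PDX12 read 11.73 on leaf 2, against 13.52 on the flag blade. CRSH2 read 12.69 on leaf 4, against 14.04, OsCASPL1U2 10.21, against 11.39, and VIT1 9.47, against 10.63. The other named genes were within 2-fold on both leaves. LOC4329743, named after its values were seen, was dimmer on the flag blade than on the lower leaves: it read 11.32 on leaf 2 and 11.55 on leaf 4, against 8.92 on the whole flag blade and 9.24 to 10.1 over its parts.

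**Figure D5:**
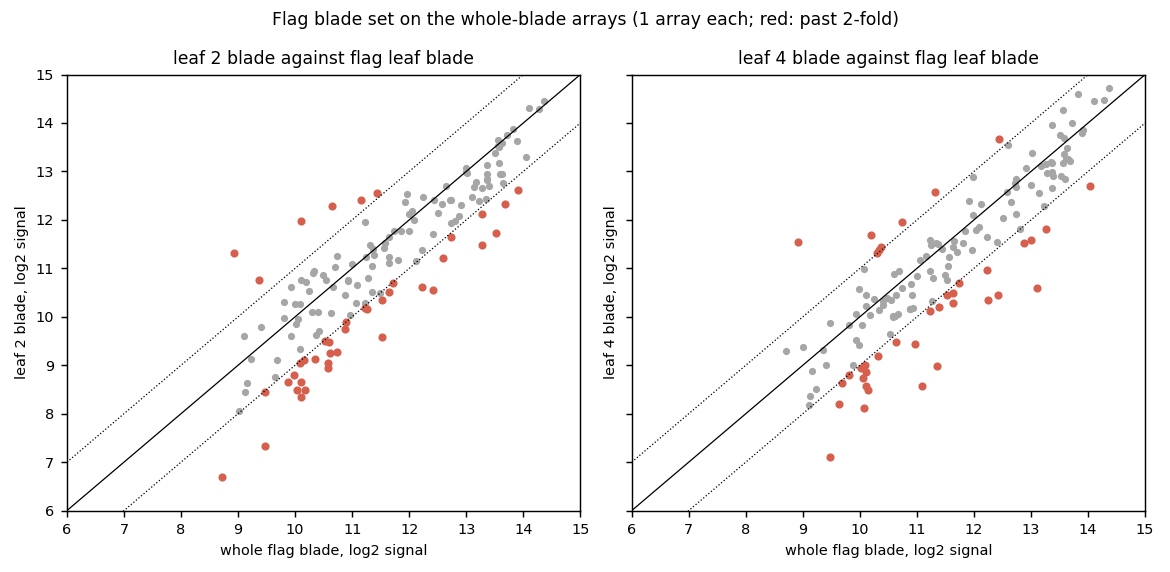
Log2 signal of the 148 probe sets on the leaf 2 blade (left) and the leaf 4 blade (right) against the whole flag leaf blade, 1 array each; the solid line marks equality, dotted lines a 2-fold difference, and red points lie past 2-fold. More points lie below the lines than above, 35 against 6 on leaf 2 and 30 against 8 on leaf 4.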

How the data were processed

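The authors' deposited table holds signal intensity on a linear scale for 57381 probe sets on 35 arrays, from 0.0536 to 66642.6, and the trimmed mean of every array is 500.06 to 500.08. The program that summarised probes and scaled arrays was not given in the sources used here. Deposited signals under 1 were set to 1 and taken to log2 here. The 123 control probe sets were left out. Array medians ran from 5.39 to 6.36, so values were quantile-normalized over 35 arrays; the number of arrays limits the precision. The rule for the set was applied to the deposited scale.

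A probe set entered the tests if it reached 5.83, the median over all values, on 3 or more of 32 replicated arrays. The tests used limma 3.58.1 (lmFit, eBayes; R 4.3.3) with 1 mean for each of 11 groups (21 residual degrees of freedom, prior 1.64). The fit was tested on simulated data. Members, gene lists and comparisons were chosen with earlier results of these data known. Genes were named from the platform annotation and, through the gene number, from the synonyms of a RefSeq gene table; 20920 tested probe sets have 1 gene and 17668 are not listed. Named are the 12 members with a gene name, members of the lists, those at the limits of the rule and loci with several probe sets; other loci were chosen after their values were seen. Replicate numbers were checked for pairing: same-numbered deviations correlated at -0.106 to 0.118, not above 0.1 for every pair, so they were not used as a block. Promoter motifs were not analysed here.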

Additional observations from a re-analysis of the deposited data

How the results depend on the processing

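Among the called differences of named members and of those with the largest changes, none reversed under the alternatives tried, which were the deposited scale, equal array medians, log2(signal + 16), no filter, no cross-hybridising probe sets, only the 2 groups' arrays, a replicate block and each replicate left out. Number of members: a margin of 2 gave 16, equal medians 198 (136 shared) and quantile values 149, and leaving out 1 array gave 106 (without middle replicate 1) to 209 (without middle replicate 3). With only the 2 groups' arrays, lower calls were 0 for flag blade middle minus tip, 0 for flag blade base minus tip and 1 for internode I top minus base, and higher calls 50 for flag sheath top minus base. Lower calls in internode I top minus base were 2 on the deposited scale, 3 with equal medians, 2 with log2(signal + 16) and 3 with no filter. Leaf 2 minus flag leaf past 2-fold had 21 lower with equal medians. Leaving out each replicate gave 1 to 5 lower for middle minus tip, 0 to 1 for base minus tip, 81 to 112 higher and 0 to 1 lower for sheath top minus base (1 without sheath base replicate 1), and 1 to 5 lower for the internode. All probe sets called higher and lower for sheath top minus base were 776 and 347 in the fit of those arrays alone and 1630 and 1208 without sheath base replicate 2, beside 3490 and 3297. Equal medians moved the median of all probe sets to 0.23 for sheath top minus internode top.

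With the replicate number as a block, 113 members were higher and 0 lower in sheath top minus base, 81 and 5 in the internode, 64 and 0 between the tops and 7 and 82 in flower minus panicle branch; no count of members moved by over 1.5 times. The numbers are not known to pair samples.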
